A study of Homo sapiens with 8 samples.

Results

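The 34 genes described here are needed to enter, carry out or finish mitosis, and were taken by name from a table of 57905 genes. Each name matched 1 gene, and all 34 were among the 25982 genes tested, those that averaged 1 TPM or more in 1 group or several. They were read in 2 human prostate cancer lines, DU145 (from a brain metastasis) and PC3 (from a bone metastasis), in 4 groups of 2 RNA sequencing libraries. DU145 TRIB1 and DU145 control cells received a lentivirus that carried TRIB1 or a blank-vector lentivirus, and so did PC3 TRIB1 and PC3 control cells, so that all 4 groups share lentiviral infection and the controls carry the vector. TRIB1 is a pseudokinase that presents substrates to the ubiquitin ligase COP1. The comparisons ask how mitotic transcripts differ when TRIB1 is raised in each line, whether that change differs between the lines, and how the 2 control lines differ from each other. The promoter that drives TRIB1 and whether infected cells were a pool or a clone are not stated in the labels. Nor do they say that replicates came from separate cultures or infections, and every p-value therefore reflects only how far these 8 libraries vary, a variation that may be technical.

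Cells enter mitosis when cyclin B binds the kinase CDK1 and the phosphatase CDC25C activates it, and the kinases PLK1 and AURKB then act on centrosomes, chromosomes and the spindle. Kinetochores tie chromosomes to microtubules, and the spindle checkpoint holds back the anaphase-promoting complex until every kinetochore is attached. The complex, with its activator CDC20, then marks securin and cyclin B for destruction, separase cuts cohesin, and the spindle midzone directs cytokinesis. Transcripts of these genes build up in G2 and M phase, and proliferating cancer lines hold them at high levels. In a culture of unsynchronised cells, a smaller share of cells in G2 or M and less transcript per such cell cannot be told apart.

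Values are TPM, which scale each transcript by its length and each library to the same total, so levels of different genes can be set side by side, although the gene lengths used are not given. The depth of the libraries is unknown, because TPM keep no totals, and between 30398 and 31694 genes were above 0 per library. TRIB1 (ENSG00000173334, chr8:125430321-125438405, plus strand, GENCODE 29 on GRCh38) was at 69.4 and 62.3 TPM in the DU145 TRIB1 libraries, against 10.1 and 7.94 TPM in the DU145 control libraries (log2 change 2.75, SE 0.12, adjusted p = 0.0018). In PC3 the values were 241 and 245 TPM in the TRIB1 libraries, against 45.1 and 50.8 TPM in the control libraries (log2 change 2.32, SE 0.12, adjusted p = 0.00095), so the transcript was higher in all 4 TRIB1 libraries than in the controls of their line. In a principal component analysis of 2000 variable genes, the second axis (10.3% of the variance) set the second DU145 TRIB1 library apart, at 61.7 against -24.9 to 4.89 in the other 7. All 5 epithelial markers (KRT8, KRT18, KRT19, EPCAM and CDH1) were at 1 TPM or more in all 8 libraries, while KLK3, a secreted protease of the prostate luminal lineage, was listed at 0 in 7 of the 8. The epithelial markers summed to 1396 and 1279 TPM in the DU145 TRIB1 libraries, against 1389 and 1428 TPM in the DU145 control libraries. In PC3 they summed to 2815 and 2770 TPM in the TRIB1 libraries, against 1453 and 1506 TPM in the control libraries, and 4 of the 5 rose. Markers of leukocytes, endothelium and fibroblasts other than COL1A1 summed to 1.95 to 6.87 TPM per library, and COL1A1 alone to 36.0 to 69.0 TPM. The part of these marker levels in the results below was not tested.

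The 34 genes summed to 3061 and 2966 TPM in the DU145 TRIB1 libraries, against 2729 and 2871 TPM in the DU145 control libraries. In PC3 they summed to 1625 and 1614 TPM in the TRIB1 libraries, against 1924 and 1854 TPM in the control libraries. The summed level thus lay above both controls in DU145 TRIB1 libraries and below both controls in PC3 TRIB1 libraries, and every DU145 library lay above every PC3 library. The 34 genes were not alike in level. Their values ran between 4.09 and 244 TPM, and the median gene was at 72.2 and 72.6 TPM in the DU145 TRIB1 libraries, 66.7 and 70.2 TPM in the DU145 control libraries, 36.9 and 33.5 TPM in the PC3 TRIB1 libraries and 41.8 and 37.2 TPM in the PC3 control libraries. By group mean, the order began with PTTG1, AURKB and CDC20 in DU145 TRIB1 cells, with AURKB, TOP2A and NUSAP1 in DU145 control cells, with CDC20, PTTG1 and BIRC5 in PC3 TRIB1 cells and with BIRC5, PTTG1 and CDK1 in PC3 control cells. Some neighbours in these orders did not differ beyond their spread. In DU145 TRIB1 cells AURKB averaged 203 ± 1.65 TPM and CDC20 196 ± 9.43 TPM, and in DU145 control cells AURKB averaged 191 ± 12.3 TPM and TOP2A 185 ± 1.92 TPM (SD, n = 2 each). In PC3 TRIB1 cells CDC20 averaged 153 ± 5.63 TPM and PTTG1 148 ± 2.32 TPM (SD, n = 2 each). The order ended with CENPE in both DU145 groups and with ASPM in both PC3 groups. Replicate libraries lay close together for most of the genes, with a median SD of 3.70% of the mean in DU145 TRIB1, 4.11% in DU145 control, 5.02% in PC3 TRIB1 and 5.46% in PC3 control cells, and the widest spread was that of CENPE in PC3 TRIB1 cells (30.4%).

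**Figure D1:**
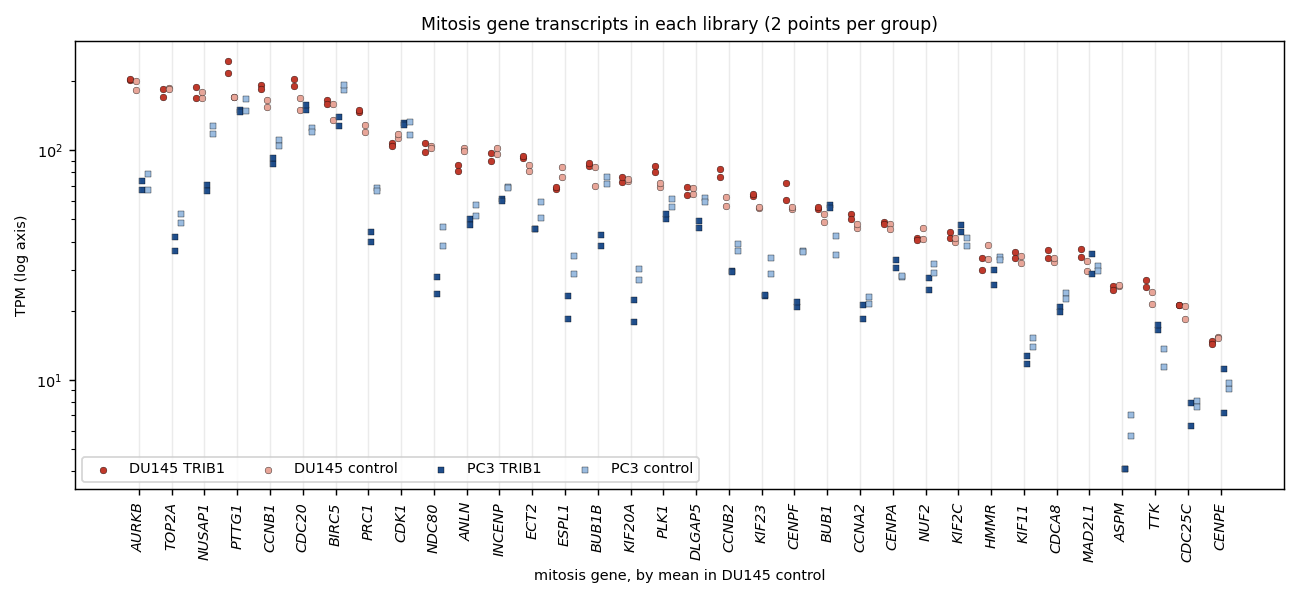
Level of each of the 34 mitosis genes in each library, in TPM on a log axis, with DU145 TRIB1, DU145 control, PC3 TRIB1 and PC3 control libraries marked apart and genes ordered by their mean in DU145 control. Values run between 4.09 and 244 TPM, and for TOP2A, ASPM and AURKB every PC3 library lies below every DU145 library.

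In PC3, TRIB1 went with lower levels of many of these genes. Of the 34, 14 fell (adjusted p below 0.05 in limma's test across all 25982 genes) and 2 rose, against 9.33% of all genes tested that fell and 7.67% that rose, so 41.2% of the mitosis genes fell. Among protein-coding genes of at least 5 TPM in a group, a class that holds all 34, 15.8% fell and 13% rose. The median log2 change was -0.22, against -0.01 over all genes tested, and the 34 changes ran between -0.85 and 0.56. The falls were moderate: none reached a log2 change of 1 in size, the cutoff of the series' design, which 5.2% of all genes tested passed. Both TRIB1 libraries lay below both controls for 23 of the 34 (67.6%, against 29.8% of all genes tested) and above both for 5 (14.7%, against 24.5%).

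In DU145 no such fall was called. By limma's test 0 of the 34 rose and 0 fell, against 0.712% of all genes tested that rose and 2.01% that fell, and at an unadjusted p below 0.05 there were 7 higher and 1 lower (20.6% and 2.94%, against 5.72% and 12% of all genes tested). The median log2 change was 0.09, against -0.04 over all genes tested, within a range of -0.26 to 0.43. Both TRIB1 libraries lay above both controls for 17 of the 34 (50%, against 17.6% of all genes tested) and below both for 5 (14.7%, against 29.7%). The largest positive change belonged to PTTG1, at 244 and 216 TPM in the DU145 TRIB1 libraries, against 171 and 171 TPM in the DU145 control libraries (log2 change 0.43, SE 0.08, adjusted p = 0.0633). CCNB2 came next, at 82.4 and 76.7 TPM in the DU145 TRIB1 libraries, against 57.0 and 62.7 TPM in the DU145 control libraries (log2 change 0.41, SE 0.08, adjusted p = 0.0633). For both genes the TRIB1 libraries were higher than either control without passing the test. Under median-of-ratios scaling of the libraries these 2 genes passed. With the second DU145 TRIB1 library left out, 0 of the 34 rose and 0 fell.

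**Figure D2:**
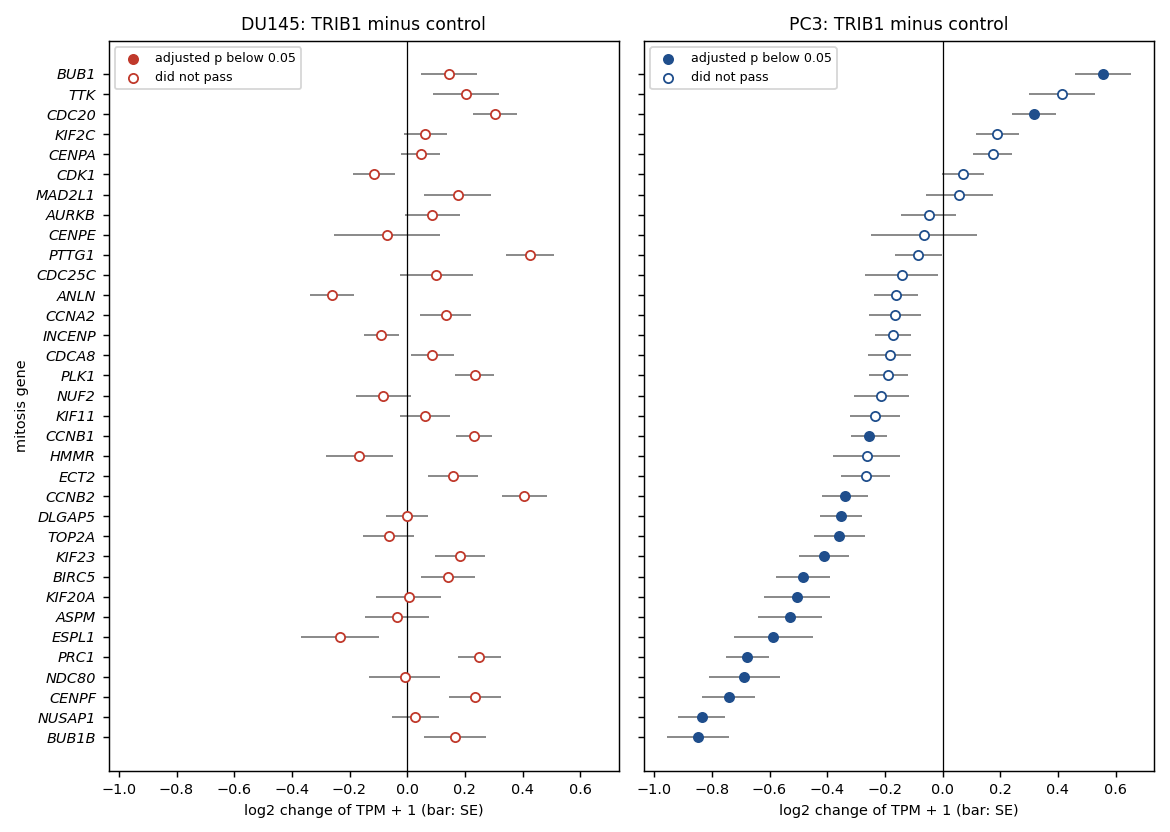
Log2 change (TRIB1 minus control, on the log2(TPM + 1) scale) of each mitosis gene in DU145 and in PC3, with bars of 1 SE and filled points for an adjusted p below 0.05. In PC3, 14 genes fell and 2 rose, while in DU145 0 passed and the changes ran between -0.26 and 0.43.

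The cyclins that drive mitosis were among the genes with lower levels in PC3 TRIB1 cells. CCNB1, which encodes cyclin B1, was at 87.3 and 92.0 TPM in the PC3 TRIB1 libraries, against 110.4 and 104 TPM in the PC3 control libraries, and fell (log2 change -0.26, SE 0.06, adjusted p = 0.0427). CCNB2, which encodes cyclin B2, was at 29.7 and 29.4 TPM in the PC3 TRIB1 libraries, against 39.1 and 36.2 TPM in the PC3 control libraries, and fell (log2 change -0.34, SE 0.08, adjusted p = 0.0367). For both genes the 2 groups did not overlap. In DU145, CCNB1 stood at 192 and 184 TPM in the TRIB1 libraries, against 155 and 165 TPM in the control libraries, which again did not overlap but in the other direction (log2 change 0.23, adjusted p = 0.136). CCNA2, the gene of cyclin A2, which acts in S phase and G2, was at 21.1 and 18.3 TPM in the PC3 TRIB1 libraries, against 23.0 and 21.4 TPM in the PC3 control libraries (log2 change -0.17, adjusted p = 0.287). In DU145 it was at 52.5 and 50.1 TPM in the TRIB1 libraries, against 45.8 and 47.5 TPM in the control libraries (log2 change 0.13, adjusted p = 0.497), and neither change passed. CDK1, their kinase partner, did not follow the cyclins. Its level was 131 and 129 TPM in the PC3 TRIB1 libraries, against 132 and 116 TPM in the PC3 control libraries (log2 change 0.07, adjusted p = 0.589), with overlapping groups. In DU145 it was at 108 and 104 TPM in the TRIB1 libraries, against 113 and 117 TPM in the control libraries (log2 change -0.12, adjusted p = 0.477), both TRIB1 libraries below both controls. CDC25C, the phosphatase that removes the inhibitory marks from CDK1, did not pass in either line, with log2 changes of 0.10 in DU145 and -0.14 in PC3.

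The mitotic kinases outside the checkpoint passed in neither line. PLK1, which acts at centrosomes and kinetochores, was at 50.3 and 52.7 TPM in the PC3 TRIB1 libraries, against 56.6 and 61.1 TPM in the PC3 control libraries (log2 change -0.19, adjusted p = 0.124). In DU145 it was at 85.7 and 80.7 TPM in the TRIB1 libraries, against 69.0 and 72.1 TPM in the control libraries (log2 change 0.23, adjusted p = 0.158), so TRIB1 libraries were below both controls in PC3 and above both in DU145. AURKB, the kinase of the chromosomal passenger complex, which corrects wrong attachments, was at 73.4 and 66.9 TPM in the PC3 TRIB1 libraries, against 67.0 and 78.4 TPM in the PC3 control libraries (log2 change -0.05, adjusted p = 0.812), with overlapping groups. In DU145 it was at 202 and 204 TPM in the TRIB1 libraries, against 183 and 199.9 TPM in the control libraries (log2 change 0.09, adjusted p = 0.697). The partners of AURKB in the complex were measured too. BIRC5, which encodes survivin and guides the complex to the centromere, was at 128 and 139.5 TPM in the PC3 TRIB1 libraries, against 183 and 191 TPM in the PC3 control libraries, and fell (log2 change -0.48, SE 0.09, adjusted p = 0.022). The scaffold gene INCENP and the borealin gene CDCA8 did not pass in PC3, with log2 changes of -0.17 and -0.18, although both TRIB1 libraries were below both controls for each.

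The checkpoint genes moved in both directions in PC3. BUB1B, whose product BubR1 is part of the complex that inhibits CDC20, was at 38.4 and 42.7 TPM in the PC3 TRIB1 libraries, against 71.2 and 76.2 TPM in the PC3 control libraries, and had the largest fall of the 34 genes (log2 change -0.85, SE 0.11, adjusted p = 0.00621). BUB1, the kinase that recruits checkpoint proteins and marks the centromere, was at 57.9 and 56.2 TPM in the PC3 TRIB1 libraries, against 42.1 and 35.1 TPM in the PC3 control libraries, and rose (log2 change 0.56, SE 0.10, adjusted p = 0.0158). CDC20, the target of the checkpoint, was at 149 and 157 TPM in the PC3 TRIB1 libraries, against 125 and 119.6 TPM in the PC3 control libraries, and rose (log2 change 0.32, SE 0.08, adjusted p = 0.0412). All 3 genes had groups that did not overlap, so the inhibitor transcript was lower while that of its target was higher in the same 2 libraries. TTK, the kinase also named MPS1 at the head of the checkpoint, did not pass at 16.4 and 17.3 TPM in the PC3 TRIB1 libraries, against 13.6 and 11.4 TPM in the PC3 control libraries (log2 change 0.41, adjusted p = 0.0606). MAD2L1, which encodes the checkpoint protein MAD2, did not pass either (log2 change 0.06, adjusted p = 0.812). In DU145, CDC20 was at 203 and 189.8 TPM in the TRIB1 libraries, against 149.8 and 169 TPM in the control libraries (log2 change 0.30, adjusted p = 0.115). BUB1B was at 85.3 and 87.6 TPM in the DU145 TRIB1 libraries, against 69.9 and 84.7 TPM in the DU145 control libraries (log2 change 0.17, adjusted p = 0.478) and BUB1 at 55.5 and 56.6 TPM in the DU145 TRIB1 libraries, against 48.8 and 52.5 TPM in the DU145 control libraries (log2 change 0.14, adjusted p = 0.495). All 3 were above both controls in both TRIB1 libraries of DU145 and none passed.

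Of the 5 centromere and kinetochore genes, 2 fell in PC3. NDC80, the microtubule-binding subunit of the outer kinetochore, was at 23.6 and 28.1 TPM in the PC3 TRIB1 libraries, against 46.4 and 38.3 TPM in the PC3 control libraries, and fell (log2 change -0.69, SE 0.12, adjusted p = 0.0172). Its partner NUF2 did not pass, at 24.7 and 27.7 TPM in the PC3 TRIB1 libraries, against 31.9 and 29.1 TPM in the PC3 control libraries (log2 change -0.21, adjusted p = 0.2). CENPF, a large coiled-coil protein of the outer kinetochore, was at 20.7 and 21.8 TPM in the PC3 TRIB1 libraries, against 36.5 and 35.8 TPM in the PC3 control libraries, and fell (log2 change -0.74, SE 0.09, adjusted p = 0.00595). CENPA, the histone H3 variant that marks the centromere, was in contrast above both controls in PC3 TRIB1 libraries (log2 change 0.17, adjusted p = 0.146), and the motor gene CENPE had overlapping groups (log2 change -0.06, adjusted p = 0.891). In DU145, NDC80 was at 107 and 98.2 TPM in the TRIB1 libraries, against 105 and 102 TPM in the control libraries, and CENPF at 71.7 and 60.5 TPM in the TRIB1 libraries, against 55.2 and 56.5 TPM in the control libraries (log2 change 0.23, adjusted p = 0.261). CENPF was thus above both controls in DU145 TRIB1 libraries and below both in PC3 TRIB1 libraries.

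The genes of the spindle midzone and of cytokinesis included some of the larger falls in PC3. PRC1, which bundles antiparallel microtubules in the midzone, was at 39.6 and 44.2 TPM in the PC3 TRIB1 libraries, against 68.6 and 66.5 TPM in the PC3 control libraries, and fell (log2 change -0.68, SE 0.07, adjusted p = 0.00438). KIF23, the kinesin of the centralspindlin complex, was at 23.1 and 23.5 TPM in the PC3 TRIB1 libraries, against 33.9 and 28.8 TPM in the PC3 control libraries, and fell (log2 change -0.41, SE 0.09, adjusted p = 0.0277). KIF20A, a kinesin that brings the passenger complex and PLK1 to the midzone, was at 22.3 and 17.9 TPM in the PC3 TRIB1 libraries, against 30.3 and 27.2 TPM in the PC3 control libraries, and fell (log2 change -0.50, SE 0.11, adjusted p = 0.0339). All 3 had TRIB1 libraries below both controls. ECT2, which activates RhoA at the division plane, and ANLN, the contractile ring protein anillin, did not pass (log2 change -0.27, adjusted p = 0.0905 for ECT2 and log2 change -0.16, adjusted p = 0.222 for ANLN). In DU145, PRC1 was at 146 and 149.5 TPM in the TRIB1 libraries, against 119 and 129 TPM in the control libraries (log2 change 0.25, adjusted p = 0.162). KIF23 was at 63.3 and 64.4 TPM in the DU145 TRIB1 libraries, against 55.8 and 56.4 TPM in the DU145 control libraries (log2 change 0.18, adjusted p = 0.353), and KIF20A at 72.7 and 76.3 TPM in the DU145 TRIB1 libraries, against 73.7 and 74.7 TPM in the DU145 control libraries (log2 change 0.005, adjusted p = 1). None of the 3 passed there, and PRC1 and KIF23 were above both controls.

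Spindle genes showed the same spread between falls and changes that did not pass. NUSAP1, which binds and bundles microtubules near chromosomes, was at 70.7 and 66.2 TPM in the PC3 TRIB1 libraries, against 118 and 128 TPM in the PC3 control libraries, and fell (log2 change -0.83, SE 0.08, adjusted p = 0.00329). ASPM, which holds spindle poles together, was at 4.09 and 4.09 TPM in the PC3 TRIB1 libraries, against 7.04 and 5.70 TPM in the PC3 control libraries, and fell (log2 change -0.53, SE 0.11, adjusted p = 0.0276). DLGAP5, a kinetochore fibre protein also named HURP, was at 49.0 and 45.9 TPM in the PC3 TRIB1 libraries, against 62.0 and 59.6 TPM in the PC3 control libraries, and fell (log2 change -0.35, SE 0.07, adjusted p = 0.0256). ASPM is low in PC3, so the pseudocount makes its log2 change understate the ratio. KIF11, the motor that pushes spindle poles apart, HMMR, a spindle pole protein, and KIF2C, which depolymerises microtubules at centromeres, did not pass, with log2 changes of -0.23, -0.26 and 0.19. In DU145, NUSAP1 was at 168 and 188 TPM in the TRIB1 libraries, against 169 and 179 TPM in the control libraries (log2 change 0.03, adjusted p = 0.926), DLGAP5 at 69.1 and 63.6 TPM in the TRIB1 libraries, against 64.5 and 68.4 TPM in the control libraries, and ASPM at 25.6 and 24.5 TPM in the TRIB1 libraries, against 25.6 and 25.8 TPM in the control libraries. These 3 genes had DU145 log2 changes between -0.04 and 0.03.

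Securin and separase, which act as inhibitor and protease at the onset of anaphase, were not alike. ESPL1, the separase gene, was at 23.3 and 18.5 TPM in the PC3 TRIB1 libraries, against 28.9 and 34.7 TPM in the PC3 control libraries, and fell (log2 change -0.59, SE 0.14, adjusted p = 0.0367). PTTG1, the securin gene, was at 150.0 and 147 TPM in the PC3 TRIB1 libraries, against 167 and 148 TPM in the PC3 control libraries, with overlapping groups (log2 change -0.08, adjusted p = 0.566). In DU145, ESPL1 was at 67.6 and 69.0 TPM in the TRIB1 libraries, against 76.7 and 84.3 TPM in the control libraries, below both controls without passing (log2 change -0.23, adjusted p = 0.459), while PTTG1 had the largest positive change given above. TOP2A, the topoisomerase that untangles sister chromatids, was at 41.9 and 36.4 TPM in the PC3 TRIB1 libraries, against 52.8 and 48.0 TPM in the PC3 control libraries, and fell in PC3 (log2 change -0.36, SE 0.09, adjusted p = 0.0448). In DU145 it was at 184 and 170.5 TPM in the TRIB1 libraries, against 187 and 184 TPM in the control libraries (log2 change -0.06, adjusted p = 0.779). PTTG1 has retrocopies elsewhere in the genome, and how reads were divided among them is not given, so its values are uncertain.

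The calls in PC3 differ in how much they rest on single libraries. Leaving out a library outside the groups compared does not alter a log2 change, here and in the results below. It alters only the shared estimate of the spread, its degrees of freedom and the adjustment over the genes tested. BUB1B, CENPF, PRC1 and NUSAP1 stayed below an adjusted p of 0.05 with any 1 of the 8 libraries left out and in the other 8 alternatives tried. The other 12 lost the call without at least 1 library. CCNB1 (adjusted p 0.0611 to 0.16) and TOP2A (0.0558 to 0.158) lost it with any 1 of the 8 left out. CCNB2 lost it with any 1 library other than the second DU145 control left out (0.0499 to 0.132), KIF20A with any 1 library other than the first PC3 TRIB1 library left out (0.029 to 0.121) and ESPL1 with any 1 library other than the first PC3 control left out (0.0488 to 0.143). KIF23 (0.0111 to 0.116) and ASPM (0.0173 to 0.106) lost it with any 1 DU145 library or either PC3 TRIB1 library left out. CDC20 (0.0469 to 0.175) lost it with either DU145 TRIB1 library or any 1 PC3 library left out, and BIRC5 (0.025 to 0.118) with any 1 PC3 library or the first DU145 TRIB1 library left out. DLGAP5 (0.0318 to 0.107) lost it with any 1 PC3 library left out, BUB1 (0.00987 to 0.0881) without either PC3 TRIB1 library, and NDC80 (0.0286 to 0.089) without either DU145 control, the first PC3 control or the first PC3 TRIB1 library. The sign of the change stayed as given for all 16 genes in each of these fits. The count that fell was 6 and 7 without the first and the second DU145 TRIB1 library, 6 and 7 without the DU145 controls, 5 without either PC3 TRIB1 library, and 7 and 8 without the PC3 controls. The count that rose was 1 without either DU145 TRIB1 library, 1 without the second PC3 control and 0 without either PC3 TRIB1 library.

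The 2 lines were then compared in their response, as the TRIB1 change in DU145 minus that in PC3. For 8 of the 34 genes this difference was positive and passed the test, and for 0 it was negative, against 4.01% of all genes tested on the positive and 5.36% on the negative side. The median difference was 0.30 for the mitosis genes and -0.03 over all genes tested. At an unadjusted p below 0.05 there were 16 positive and 1 negative (47.1% and 2.94%, against 11.8% and 14.1% of all genes tested). BUB1B had the largest difference (1.01, SE 0.15, adjusted p = 0.0173) and was the only 1 of the 34 that passed with over 1 on the log2 scale, as 2.11% of all genes tested did. CENPF differed by 0.98 (adjusted p = 0.0124), PRC1 by 0.93 (adjusted p = 0.00855), NUSAP1 by 0.86 (adjusted p = 0.0128) and CCNB2 by 0.74 (adjusted p = 0.0173). BIRC5, KIF23 and CCNB1 also passed, with differences of 0.62, 0.59 and 0.49 (adjusted p = 0.0419, 0.0387 and 0.0279). All 8 genes had a positive log2 change in DU145 and a negative one in PC3. CDC20 had a difference of -0.01 (adjusted p = 0.954), with a higher mean in the TRIB1 libraries of both lines.

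Only PRC1 kept its difference with any 1 of the 8 libraries left out. CENPF lost it without the first DU145 control (adjusted p 0.0156 to 0.0519 over the 8 libraries left out), NUSAP1 without that library or the second PC3 TRIB1 library (0.0216 to 0.0541), and CCNB2 without either PC3 TRIB1 library (0.0301 to 0.0573). BUB1B lost it without either DU145 TRIB1 library, the second PC3 control or the first PC3 TRIB1 library (0.0205 to 0.0629). CCNB1 (0.0413 to 0.0818) and KIF23 (0.0155 to 0.112) lost it with any 1 DU145 library or either PC3 TRIB1 library left out, and BIRC5 (0.0373 to 0.13) with any 1 library other than the second DU145 control left out. The count of positive differences was 4 without either DU145 TRIB1 library, 3 and 6 without the first and the second DU145 control, 3 without either PC3 TRIB1 library, and 8 and 9 without the PC3 controls.

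Some of these genes share a chromosome. BUB1B (ENSG00000156970, chr15:40161023-40221136, plus strand), NUSAP1 (ENSG00000137804, chr15:41332694-41381050, plus strand), CCNB2 (ENSG00000157456, chr15:59105078-59125045, plus strand), KIF23 (ENSG00000137807, chr15:69414246-69448427, plus strand) and PRC1 (ENSG00000198901, chr15:90966038-90995629, minus strand) lie on chromosome 15 in GENCODE 29 on GRCh38, a grouping chosen after their values were seen. All 5 fell in PC3, with a median log2 change of -0.68, and all 5 were among the 8 genes that differed between the lines. Of the 29 mitosis genes on other chromosomes, 9 fell (31%) and 2 rose, with a median of -0.18. Among the 394 other protein-coding genes of chromosome 15 with at least 5 TPM in a group, 93 fell in PC3 (23.6%), 21 rose, and the median was -0.17. Such a share was not particular to chromosome 15. By chromosome it ran from 4.73% on chromosome 4 to 27.9% on chromosome 20, and was also larger on 21 (27.8%) and 7 (25.4%). Over all protein-coding genes of that level 15.8% fell. In DU145 the median of those 394 genes was 0.11, and that of the 5 mitosis genes 0.18. The median difference between the lines was 0.28 for the 394 genes and 0.86 for the 5. The part of the chromosome in these changes was not tested. BUB1B overlaps the read-through gene BUB1B-PAK6 on the same strand, and PRC1 and NUSAP1 each overlap an unnamed protein-coding gene model on the same strand, so reads may have been divided between them.

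**Figure D3:**
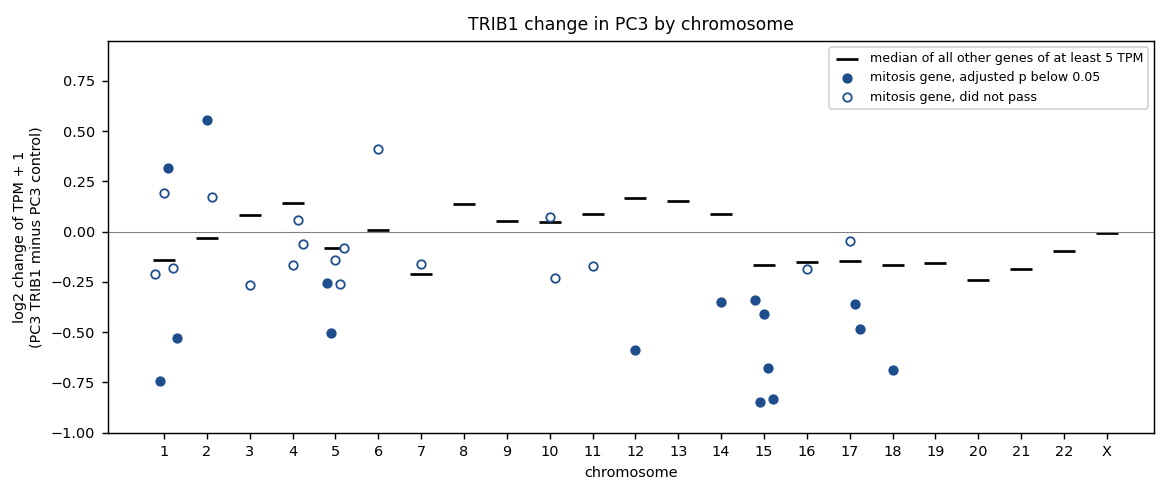
Log2 change in PC3 (TRIB1 minus control, log2(TPM + 1) scale) of each mitosis gene by chromosome. A bar gives the median of the other protein-coding genes of that chromosome with at least 5 TPM in a group. The 5 genes on chromosome 15 all fell, with a median of -0.68 beside a median of -0.17 for the other 394 genes there.

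Promoters of mitotic genes are known for CCAAT boxes, bound by the factor NF-Y, and for the cell cycle homology region, bound by the MuvB core as part of the DREAM repressor or together with the activators B-MYB and FOXM1. RefSeq promoter windows on GRCh38.p14, 250 bases before to 50 after the gene start, were matched by symbol for 32 of the 34 genes, with the first listed window used for the 5 genes that had several. The promoters of TTK and BIRC5 were not used here. The letters CCAAT, on either strand, stood in 25 of the 32 windows (78.1%), against 35.7% of all 27305 windows. The letters TTTGAA, a common core of the cell cycle homology region, on either strand, stood in 23 (71.9%), against 15.4% of all windows, and both stood in 19 (59.4%), against 6.08%. A match of one set of letters can share at most 1 base with a match of the other. Of the 13 windows of genes that fell in PC3, 11 held CCAAT, 11 held TTTGAA and 9 held both (69.2%), and of the other 19 windows, 14 held CCAAT, 12 held TTTGAA and 10 held both (52.6%). The 57 CCAAT matches lay at a median of 75 bases before the start, and the 30 TTTGAA matches at a median of 27 bases before it. A match is a description of the letters and not a bound site.

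The last 120 bases before the RefSeq start are printed here, so that the elements of these genes can be compared. They cover the 2 genes that rose in PC3 (BUB1 and CDC20) and 7 of the 8 that differed between the lines. RefSeq and GENCODE 29 starts differ. The stretches of PRC1, NUSAP1 and CCNB1 lie wholly within the GENCODE 29 interval of their gene, and only that of CENPF lies wholly before it. Capitals mark CCAAT or TTTGAA on either strand, and each sequence reads 5′ to 3′ on the strand of its gene. The windows are BUB1 at chr2:110678064-110678183 (minus strand), CDC20 at chr1:43358861-43358980 (plus strand), BUB1B at chr15:40160949-40161068 (plus strand), NUSAP1 at chr15:41332761-41332880 (plus strand), CCNB2 at chr15:59105026-59105145 (plus strand), KIF23 at chr15:69414229-69414348 (plus strand), PRC1 at chr15:90994536-90994655 (minus strand), CENPF at chr1:214603075-214603194 (plus strand) and CCNB1 at chr5:69167030-69167149 (plus strand).
BUB1: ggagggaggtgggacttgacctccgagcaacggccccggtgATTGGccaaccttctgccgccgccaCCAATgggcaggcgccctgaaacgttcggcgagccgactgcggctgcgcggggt
CDC20: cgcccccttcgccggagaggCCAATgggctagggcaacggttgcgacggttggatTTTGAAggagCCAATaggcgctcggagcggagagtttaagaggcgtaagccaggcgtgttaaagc
BUB1B: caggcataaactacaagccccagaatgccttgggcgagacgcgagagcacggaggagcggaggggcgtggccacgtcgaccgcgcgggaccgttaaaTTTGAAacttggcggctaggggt
NUSAP1: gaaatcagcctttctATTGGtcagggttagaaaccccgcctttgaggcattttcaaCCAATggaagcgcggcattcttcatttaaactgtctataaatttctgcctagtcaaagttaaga
CCNB2: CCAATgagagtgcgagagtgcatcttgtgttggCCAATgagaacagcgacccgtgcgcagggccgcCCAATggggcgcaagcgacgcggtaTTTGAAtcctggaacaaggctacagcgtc
KIF23: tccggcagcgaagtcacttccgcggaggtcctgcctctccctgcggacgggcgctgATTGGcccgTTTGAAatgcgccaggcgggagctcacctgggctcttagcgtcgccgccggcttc
PRC1: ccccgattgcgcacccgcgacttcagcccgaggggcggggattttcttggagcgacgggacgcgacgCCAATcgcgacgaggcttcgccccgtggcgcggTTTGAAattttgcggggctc
CENPF: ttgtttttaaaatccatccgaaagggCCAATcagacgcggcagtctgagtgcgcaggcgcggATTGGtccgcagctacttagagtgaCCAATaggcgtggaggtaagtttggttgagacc
CCNB1: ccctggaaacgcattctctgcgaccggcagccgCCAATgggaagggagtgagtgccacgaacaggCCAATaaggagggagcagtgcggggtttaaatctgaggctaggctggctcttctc
CDC20, which rose, CCNB2, PRC1 and KIF23, which fell, all carry both elements in these bases. BUB1, which rose, CENPF, NUSAP1 and CCNB1, which fell, show CCAAT alone, and BUB1B shows TTTGAA alone. Each set of letters thus stood both in stretches of genes that rose in PC3 and in stretches of genes that fell.

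**Figure D4:**
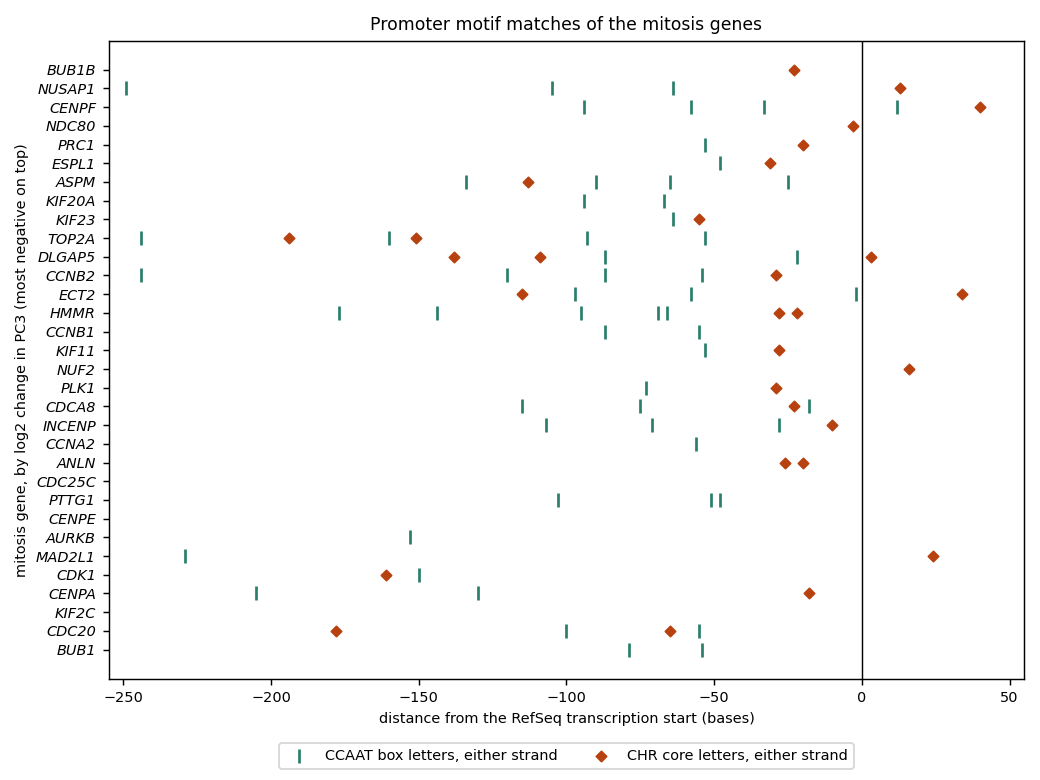
Positions of CCAAT and TTTGAA (either strand) in the promoter windows of 32 mitosis genes, in bases relative to the RefSeq start, with genes ordered by their log2 change in PC3. CCAAT matches have their median 75 bases and TTTGAA matches 27 bases before the start.

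The control lines differed in these genes without added TRIB1. In control PC3 cells 26 of the 34 genes were lower than in control DU145 cells and 1 was higher, against 28.4% of all genes tested that were lower and 18.6% that were higher, so 76.5% of the mitosis genes were lower. Among protein-coding genes of at least 5 TPM in a group, 38.7% were lower. The median log2 difference was -0.61, against -0.18 over all genes tested. Of the 34, 9 were lower by more than 1 on the log2 scale (15.7% of all genes tested). Scaling by median of ratios or by the upper quartile moves the median of all genes by 0.18 and 0.17, and 21 of the 34 were then lower under either, at medians of -0.38 and -0.41. Under these scalings 52.1% and 50.6% of all calls were on the higher side, against 39.6% in the unscaled TPM.

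TOP2A had a difference of -1.86 between the control lines, at 52.8 and 48.0 TPM in the PC3 control libraries, against 187 and 184 TPM in the DU145 control libraries (SE 0.09, adjusted p = 3.47e-05). ASPM was at 7.04 and 5.70 TPM in the PC3 control libraries, against 25.6 and 25.8 TPM in the DU145 control libraries (-1.86, adjusted p = 7.37e-05). AURKB was at 67.0 and 78.4 TPM in the PC3 control libraries, against 183 and 199.9 TPM in the DU145 control libraries (-1.39, adjusted p = 0.000121). For these 3 genes each PC3 control was below each DU145 control. KIF20A, ESPL1, NDC80, CDC25C and KIF11 followed, with log2 differences of -1.34, -1.32, -1.27, -1.22 and -1.15. CDC25C was at 8.12 and 7.64 TPM in the PC3 control libraries, against 18.4 and 21.0 TPM in the DU145 control libraries, and KIF11 at 15.1 and 13.9 TPM in the PC3 control libraries, against 32.3 and 34.5 TPM in the DU145 control libraries. CCNA2, CCNB1, CCNB2 and PLK1 were lower too, by log2 differences of -1.04, -0.57, -0.65 and -0.26. BIRC5 was the gene that was higher, at 183 and 191 TPM in the PC3 control libraries, against 135 and 159 TPM in the DU145 control libraries (0.35, adjusted p = 0.0253). The 7 that did not pass were CDK1 (0.10), BUB1B (-0.06), MAD2L1 (-0.03), KIF2C (-0.02), DLGAP5 (-0.12), HMMR (-0.09) and PTTG1 (-0.12). Scaling changed some of these calls. PLK1 was at -0.03 and -0.06 (adjusted p = 0.776 and 0.686) under median-of-ratios and upper-quartile scaling, and BUB1, NUF2, CENPE and CDC20 also no longer passed under either. CDK1 passed as higher in PC3 under both, at 0.33 and 0.31 (adjusted p = 0.00974 and 0.0244), while the other 6 that did not pass in the unscaled TPM were negative there and positive under both scalings. The calls of PLK1 (adjusted p 0.0218 to 0.093), BUB1 (0.00485 to 0.101), CENPE (0.00379 to 0.125) and BIRC5 (0.0144 to 0.111) each ended without at least 1 library: PLK1 without either DU145 control or the first PC3 control, BUB1 without either DU145 control, CENPE with any 1 library other than the PC3 TRIB1 ones left out, and BIRC5 without either PC3 control or the first library of DU145 TRIB1 or of DU145 control.

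**Figure D5:**
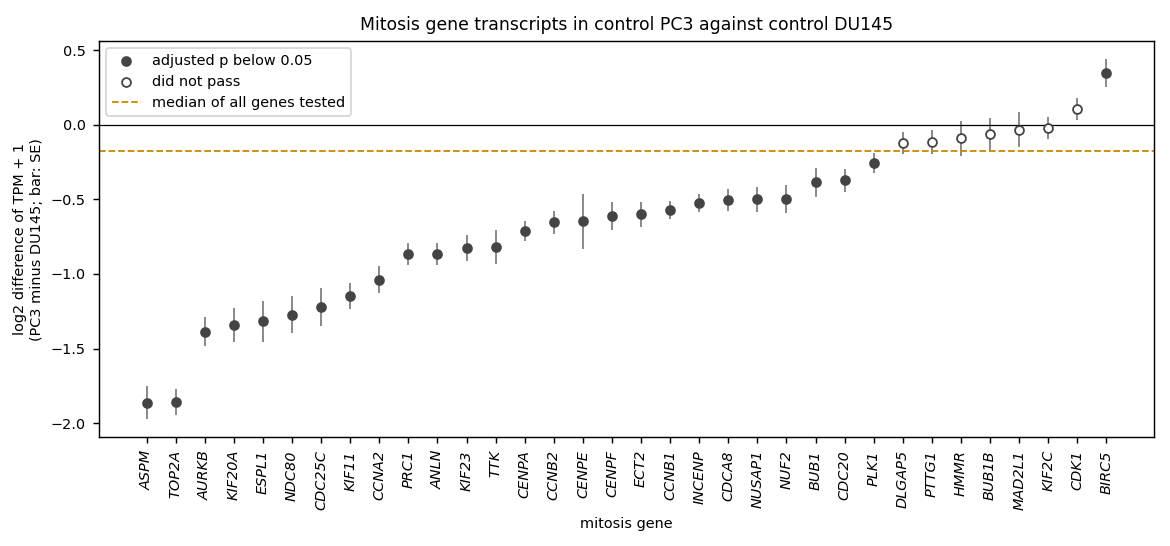
Log2 difference (control PC3 minus control DU145, log2(TPM + 1) scale) of each mitosis gene, with bars of 1 SE and filled points for an adjusted p below 0.05. Of the 34 genes, 26 were lower in PC3 and 1, BIRC5, was higher.

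Other genes of cell division were counted from lists chosen with earlier results of these data known, as context for the 34. In PC3, of 35 further kinetochore and centromere genes 4 fell and 1 rose (median log2 change -0.03). Those with the smallest p were SPC24, a subunit of the NDC80 complex (log2 change -0.96, adjusted p = 0.00408), SKA1, which follows microtubule ends (log2 change -0.57, adjusted p = 0.028), and HJURP, the chaperone of CENPA (log2 change -0.58, adjusted p = 0.0321). Of 30 further spindle and cytokinesis genes, 8 fell and 1 rose (median -0.20), among them the kinesin gene KIFC1 (-0.71), the citron kinase gene CIT (-0.89) and TROAP (0.42). Of the 18 genes of the anaphase-promoting complex, 5 rose and 1 fell (median 0.03): the subunit genes ANAPC1 and ANAPC13 rose (0.74 and 0.46) and CDC27 fell (-0.36). Of 17 condensin and cohesin genes, 3 fell (median 0.02), which were SMC4 (-0.57), NCAPD2 (-0.39) and SMC1A (-0.41). Of 42 genes of DNA replication and the G1/S step, 4 fell and 3 rose (median -0.21). TYMS, which makes thymidylate, fell (-0.81), while the primase gene PRIM1 and the cyclin E1 gene CCNE1 rose (1.03 and 0.99). The share that fell was thus 41.2% among the mitosis genes and 26.7% among the other spindle and cytokinesis genes. It was 11.4% among the other kinetochore genes and 9.52% among the replication genes, near the 9.33% of all genes tested. Among protein-coding genes of at least 5 TPM in a group it was 15.8%. The share that rose was 7.67% of all genes tested and 13% of those protein-coding genes. At an unadjusted p below 0.05 by limma's test, 35.7% of the replication genes were lower in PC3 and 11.9% higher. Lower and higher were 25.7% and 17.1% of the other kinetochore genes, and 46.7% and 10% of the other spindle and cytokinesis genes. They were 55.9% and 14.7% of the mitosis genes, and 16.8% and 13.8% of all genes tested. These shares were not tested against each other. SPC24, KIFC1, TROAP, SMC4, TYMS, PRIM1 and CCNE1 passed with any 1 of the 8 libraries left out. SKA1 (adjusted p 0.0152 to 0.123) and HJURP (0.00958 to 0.142) lost the call with any 1 DU145 library or either PC3 TRIB1 library left out, CIT (0.0158 to 0.0621) and ANAPC13 (0.0245 to 0.0732) without either PC3 TRIB1 library, and ANAPC1 (0.0173 to 0.0505) without the first of them. CDC27 (0.0324 to 0.0716) lost it without either PC3 control or the second PC3 TRIB1 library, NCAPD2 (0.0203 to 0.171) with any 1 library other than the first PC3 TRIB1 left out, and SMC1A (0.0521 to 0.19) with any 1 of the 8 left out.

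The genes that regulate mitotic transcription are known as the DREAM, MuvB, MYB, FOXM1, E2F and NF-Y factors. Of 18 such genes, 2 fell (11.1%) and 1 rose (5.56%) in PC3, against 9.33% and 7.67% of all genes tested (median -0.05). MYBL2, which encodes B-MYB, was at 54.9 and 53.9 TPM in the PC3 TRIB1 libraries, against 76.4 and 80.3 TPM in the PC3 control libraries, and fell (log2 change -0.52, SE 0.09, adjusted p = 0.0177). E2F4, part of DREAM, fell (log2 change -0.41, adjusted p = 0.0284), and LIN52, a MuvB subunit, rose (log2 change 0.91, adjusted p = 0.00986). FOXM1 did not pass in PC3, at 48.9 and 48.1 TPM in the PC3 TRIB1 libraries, against 52.4 and 54.7 TPM in the PC3 control libraries (log2 change -0.14, adjusted p = 0.198), and E2F1, an activator of G1/S genes, did not pass at 32.0 and 32.0 TPM in the PC3 TRIB1 libraries, against 40.5 and 47.2 TPM in the PC3 control libraries (log2 change -0.44, adjusted p = 0.0777). RB1, the retinoblastoma gene, was at 10.1 and 9.95 TPM in the PC3 TRIB1 libraries, against 10.2 and 9.51 TPM in the PC3 control libraries (log2 change 0.03, adjusted p = 0.951), with overlapping groups. MKI67, the proliferation marker, was at 18.1 and 16.3 TPM in the PC3 TRIB1 libraries, against 23.9 and 20.1 TPM in the PC3 control libraries, below both controls without passing (log2 change -0.34, adjusted p = 0.0972). In DU145, MKI67 was at 55.3 and 57.7 TPM in the TRIB1 libraries, against 47.5 and 52.9 TPM in the control libraries (log2 change 0.17, adjusted p = 0.485), FOXM1 at 59.2 and 55.6 TPM in the TRIB1 libraries, against 52.7 and 55.1 TPM in the control libraries, MYBL2 at 109 and 93.1 TPM in the TRIB1 libraries, against 116 and 128 TPM in the control libraries, E2F1 at 52.0 and 40.7 TPM in the TRIB1 libraries, against 57.2 and 61.3 TPM in the control libraries and RB1 at 11.6 and 8.90 TPM in the TRIB1 libraries, against 11.6 and 11.8 TPM in the control libraries, and none of these 5 passed. In PC3, LIN52 passed with any 1 library left out, MYBL2 (adjusted p 0.017 to 0.0962) lost the call with any 1 PC3 library left out, and E2F4 (0.0093 to 0.126) with any 1 DU145 library or either PC3 TRIB1 library left out.

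CDKN1A, which encodes the CDK inhibitor p21, passed in both lines and in opposite directions. In PC3 it was at 115 and 118 TPM in the TRIB1 libraries, against 55.7 and 60.5 TPM in the control libraries, and rose (log2 change 0.99, SE 0.07, adjusted p = 0.00134). In DU145 it was at 73.8 and 67.9 TPM in the TRIB1 libraries, against 103 and 101 TPM in the control libraries, and fell (log2 change -0.53, SE 0.07, adjusted p = 0.0245). These 2 changes differed from each other (-1.51, adjusted p = 0.00238). The sign of this difference is the reverse of that of the 8 mitosis genes that differed between the lines, and a link between them was not tested. Of all genes tested, 5.36% had a negative difference that passed. Of the 20 CDK inhibitors, D cyclins and CDK regulators tested, 4 rose and 4 fell in PC3 (median -0.07). That was 20% each, against 7.67% and 9.33% of all genes tested. The inhibitor genes CDKN2C and CDKN2A fell there (log2 change -1.31, adjusted p = 0.00223 for CDKN2C and log2 change -0.69, adjusted p = 0.00333 for CDKN2A). In DU145, 2 of the 180 genes tested in these 7 lists passed, against 0.712% of all genes tested that rose and 2.01% that fell. They were CDKN1A and UBE2C, the ubiquitin-conjugating enzyme of the anaphase-promoting complex (log2 change -0.39, adjusted p = 0.0439), and both fell. Without 1 library, the DU145 call of CDKN1A ended in 5 cases (adjusted p 0.0311 to 0.104), namely either DU145 control, the second DU145 TRIB1 library and either PC3 TRIB1 library, and that of UBE2C in 6 (0.0388 to 0.165), namely any DU145 library and either PC3 TRIB1 library. The PC3 change of CDKN1A and its difference between the lines passed with any 1 library left out, as did the PC3 changes of CDKN2C and CDKN2A.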

How the data were processed

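RNA sequencing of 8 libraries in 4 groups of 2 was read from 1 deposited gene table, and groups and replicate numbers come from the sample titles. Per the labels' protocols, cells were grown at 37 °C in 5% CO2, TRIzol was used to take up total RNA, and an NEB Ultra RNA kit to make the libraries. The deposited values are TPM, and each of the 8 columns sums to 1000000. The submitters' processing notes list hg38, edgeR, DESeq, HTSeq and TopHat2 2.0.14 without a role, and which tool made the TPM, with what gene lengths and strand setting, is not stated there. The intervals of 16 of the 34 genes overlap, by any extent, that of a gene on the opposite strand in GENCODE 29. Without a strand setting, reads from the shared bases cannot be told apart by strand, and their share is not known. Intervals in the table are of another, unstated build, so positions come from GENCODE 29 on GRCh38 through the gene identifier. A current symbol was found for 51996 of 57905 identifiers, and 233 of 234 list genes matched.

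Log2(TPM + 1) values were tested with limma 3.58.1 under R 4.3.3, with its trend of variance on mean, all 8 libraries in 1 fit with 4 group means (4 residual and 1.89 prior degrees of freedom), on the 25982 genes that averaged 1 TPM or more in 1 group or several. Log2 changes of low genes are understated on this scale. Benjamini-Hochberg adjusted p-values are over all genes tested, and rose, fell, higher and lower as calls mean an adjusted p below 0.05. The steps were tested on simulated data. Alternatives changed the pseudocount, the filter, the scaling, the libraries fitted, the trend, the replicate block and each library in turn. Promoter letters were searched in RefSeq windows.

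The mitosis genes and the other lists were chosen with earlier results of these data known. Library values are given for CDK1, CCNA2, CCNB1, CCNB2, PLK1, AURKB, CDC20, TOP2A, BIRC5 and PTTG1, for genes that passed in a TRIB1 comparison or in the difference, and for the 8 largest differences between the control lines. TRIB1, MKI67, FOXM1, MYBL2, E2F1, CDKN1A and RB1 are reported in each line whether or not they passed. Up to 3 genes with the smallest p are named per other list. KNL1, SGO1, SGO2, PIMREG and WAPL were matched under older symbols.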

Additional observations from a re-analysis of the deposited data

Results flagged for a closer look

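For 8 of the 34 mitosis genes the test of the difference itself set the 2 lines apart, with a TRIB1 change that was positive in DU145 and negative in PC3. The DU145 change minus the PC3 change was 1.01 for BUB1B (log2 change 0.17 in DU145 and -0.85 in PC3), 0.98 for CENPF (0.23 and -0.74), 0.93 for PRC1 (0.25 and -0.68) and 0.86 for NUSAP1 (0.03 and -0.83). It was 0.74 for CCNB2 (0.41 and -0.34), 0.62 for BIRC5 (0.14 and -0.48), 0.59 for KIF23 (0.18 and -0.41) and 0.49 for CCNB1 (0.23 and -0.26). By limma's test the adjusted p ran from 0.00855 for PRC1 to 0.0419 for BIRC5. The changes in DU145 did not pass on their own for any of the 8, and those in PC3 passed for all 8. The 2 lines have their own controls, so the changes in DU145 and in PC3 share no library. Groups of 2 libraries are too small for a test of a single value far from its group. In the principal component analysis the second DU145 TRIB1 library stood apart from the other 7, and without it 4 of these 8 differences passed.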

How the results depend on the processing

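No change of a mitosis gene that passed (51 over the 4 comparisons) reversed its sign under an alternative. Of the 85 that did not pass, 23 changed sign in at least 1 alternative (7 in DU145, 6 in PC3, 4 for the difference and 6 between the controls), and 10 passed in at least 1 (2, 2, 5 and 1). Of the values under an alternative of named genes that passed, with CCNB2, PTTG1 and CDC20 in DU145, 1748 stayed on the same side of the threshold with the same sign, 436 no longer passed and 2 newly passed. In PC3, the 14 that fell became 8 under upper-quartile scaling, 5 with only the groups compared, 6 without the mean-variance trend and 5 with the replicate block. The 2 that rose became 1 with no filter, without the trend and with the block, and 0 with only the groups compared. Over all genes, 1018 rose and 1138 fell with only the PC3 groups, and 784 and 951 with the block, against 1992 and 2423. In DU145, median-of-ratios scaling gave 2 members higher, a median of 0.16, 347 genes lower and 40.7% of calls on the higher side (26.2% unscaled); upper-quartile scaling gave 101 higher and 251 lower, only the groups compared 9 and 43, and the block 1 and 10, against 185 and 522. Of the 8 differences between the lines, 5 passed without the trend and 0 with the block, which called 19 genes positive and 55 negative. Between the controls, the 1 higher member became 2 under either scaling (medians -0.38 and -0.41) and 0 with only the groups compared, without the trend or with the block.

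With 1 library left out, DU145 gave 69 to 432 genes higher, 184 to 513 lower, 0 members either way and a median of 0.03 to 0.11. PC3 gave 0 to 2 members higher and 5 to 8 lower, at a median of -0.28 to -0.17, with 1046 to 1800 genes higher and 905 to 2417 lower. The difference gave 3 to 9 members positive and 0 to 1 negative, a median of 0.25 to 0.39, and 414 to 1446 genes positive and 861 to 1470 negative. The controls gave 0 to 1 members higher and 23 to 26 lower, at -0.62 to -0.58, with 3839 to 4826 genes higher and 5986 to 7252 lower. Where a group was left with 1 library, it was assumed to vary like the others.

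Replicate numbers are shared between groups, and the labels do not say whether same-numbered libraries belong together. Such libraries did not deviate together (correlation across 25982 genes of -0.04 in DU145 and -0.01 in PC3). With 2 libraries per group these correlations cannot decide whether libraries were paired, so the block is kept as an alternative. The depth behind the TPM is unknown, so no counting error is given, and 2 libraries per group leave each call to a spread shared across the 4 groups. For the difference between the lines, a fit on only the groups compared is the main one and was not repeated.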

Other observations

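After the mean of each line was removed, the genes of at least 5 TPM whose log2(TPM + 1) was most like that of CDK1 over the 8 libraries were PRIM2 (Pearson's r 0.994), RMC1 (0.987), ROCK1 (0.984), NUP153 (0.981) and SLC30A6 (0.973), of 13525 genes searched. These values are a description of 8 libraries in 4 groups, with the best of many genes taken and no test.

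In the difference between the lines, genes of the other cell division lists passed on both sides. The replication genes PRIM1 and CCNE1 had negative differences (-1.50 and -1.02) and TYMS a positive one (0.77). ANAPC13 of the anaphase-promoting complex (-0.75) and the MuvB gene LIN52 (-1.15) were negative. Of the 30 further spindle and cytokinesis genes, 4 were positive (13.3%, against 4.01% of all genes tested) and 0 negative, among them GTSE1 (0.69), PIMREG (0.76) and KIFC1 (0.53). CDKN2C (1.32) and CDKN2A (0.74) were positive, and so was SMC4 of condensin (0.69). SPC24 (0.79) was the 1 positive of 35 further kinetochore genes, or 2.86%. PRIM1, SMC4 and CDKN2C passed with any 1 of the 8 libraries left out, and the others lost the call without at least 3 of them, taken 1 at a time, at an adjusted p of up to 0.101: CDKN2A and ANAPC13 without either DU145 control or the first PC3 TRIB1 library, LIN52 with any 1 DU145 library or the second PC3 control left out, CCNE1 without either PC3 TRIB1 library, either DU145 TRIB1 library or the second DU145 control, TYMS and GTSE1 with any 1 DU145 library or either PC3 TRIB1 library left out, SPC24 with any 1 DU145 library or either PC3 control left out, PIMREG with any 1 DU145 library, the second PC3 control or the second PC3 TRIB1 library left out, and KIFC1 with any 1 library other than the second DU145 control left out.

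Between the control lines, 22 of the 30 further spindle and cytokinesis genes were lower in PC3 (73.3%) and 1 was higher, at a median of -0.72. Of all genes tested, 28.4% were lower and 18.6% higher. Of protein-coding genes of at least 5 TPM in a group, 38.7% were lower and 28.3% higher. Of the 17 condensin and cohesin genes 12 were lower (70.6%) and 2 higher (11.8%). Of the 42 replication and G1/S genes 21 were lower (50%) and 8 higher (19%). By p, SPAG5, CDCA3 and RACGAP1 came first in the spindle list (log2 differences -1.96, -1.91 and -1.39). PDS5A, NCAPD2 and SMC3 had the smallest p of the condensin and cohesin list (-1.24, -1.15 and -1.05). Of the 18 genes of the anaphase-promoting complex 8 were lower (44.4%) and 3 higher (16.7%). The smallest p in that list belonged to ANAPC4, ANAPC2 and CDC23 (-0.71, -0.61 and -0.58). PRIM1 and MCM4, a subunit of the replicative helicase, were lower (-1.68 and -1.46), while RRM2, the ribonucleotide reductase subunit, was higher (1.22). Of the 35 further kinetochore genes 14 were lower (40%), with CENPK (-2.24) and BUB3 (-0.69), and 4 were higher (11.4%), with ZWINT (1.67). Of the 18 regulators 8 were lower (44.4%) and 5 higher (27.8%), with NFYA at 0.96, NFYB at -1.25 and LIN52 at -1.10. Of the 20 CDK inhibitors, D cyclins and CDK regulators 9 were lower (45%) and 6 higher (30%), with MELK at -1.70, CDKN2A at -1.65 and CKS2 at -1.11. The shares of the regulators and of the CDK list lay near those of protein-coding genes, as did the lower share of the kinetochore genes. The genes named here passed with any 1 library left out. MKI67 was lower in PC3, at 23.9 and 20.1 TPM in the PC3 control libraries, against 47.5 and 52.9 TPM in the DU145 control libraries (-1.16, adjusted p = 0.000422), while FOXM1 did not pass (-0.010, adjusted p = 0.934). By limma's test TRIB1 was higher in control PC3 (adjusted p = 5e-05). MYBL2, CDKN1A and E2F1 were lower there (adjusted p = 0.00246, 0.000266 and 0.0413), and the call of E2F1 ended without some single libraries. RB1 did not pass.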
